A study of Abies pinsapo with 12 samples.

Results

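A group of 64 abundant needle transcripts of the Spanish fir, Abies pinsapo, stood higher in every August library than in any May library. The 64 were taken from 329801 assembled transcripts by a fixed rule. The lowest of the 6 August values had to exceed the highest of the 6 May values, the August mean had to reach 50, the mean over all 12 libraries had to lie under 1000, and the mean log2(value + 1) had to be at least 1.5 higher in August than in May. A transcript was to be left out if both control August libraries were at 2 or more times the highest of the other 10, and none was.

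RNA was sequenced from needles of trees in natural stands near the lower altitude limit of the species. Control trees belonged to unthinned, dense forest. Thinning trees belonged to plots whose tree density had been reduced in 2004, which lowers competition for light and water. Thinning plus shading trees stood in the thinned plots under a mesh that brought light down to about the level of the control stands. Each treatment had 3 circular plots of 100 m2. Needles of each treatment were sampled in August 2016 and in May 2017, with 2 libraries in each of the 6 groups, called replicate 1 and replicate 2 below. The labels do not say whether the libraries of a group came from different trees, so the p-values below measure only the spread between these libraries, which may be technical. The design had no shaded control.

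The needles of a fir are evergreen and stay on the tree for several years, so the same organ is present in spring and in summer. In a Mediterranean mountain climate, May falls in the season of bud burst and shoot growth. August falls in the dry and hot season, when conifers close their stomata for much of the day and leaf cells work under high light with little water. August and May also differ here in the sampling year, and every August library is of 2016 and every May library of 2017. Season, year and any difference in handling between the sampling dates cannot be told apart. The identifiers are those of an assembly made without a genome and come with no gene name or protein, so the 64 are described by their levels and no function is given. For the same reason the label of the tissue could not be checked against needle marker genes.

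Each value is a scaled TPM, that is the length-adjusted abundance measure TPM multiplied by 1 factor per library. The 12 columns sum to between 856638 and 1179097, and every August column has a smaller sum than every May column. The number of reads behind a value is unknown, so no counting error is given. A transcript was tested if it reached 10 in at least 2 libraries, which left 19726 transcripts and all 64 of the group. The tested transcripts made up 71.4% to 90.0% of the sum of a library. One library stood apart in what it detected. Thinning May replicate 1 listed 208032 transcripts above 0, against 81710 to 117855 in the other 11.

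The rule narrowed the table in a few steps. All 6 August values exceeded all 6 May values in 1862 transcripts, 225 of these had an August mean of at least 50, and 64 of those also had a log2 difference of at least 1.5. Among the tested transcripts, 830 of 19726 (4.21%) had all August values above all May values. The 64 were chosen on this difference, so it is described here and not tested. The limits on the overall mean and on control August removed nothing. The highest overall mean among the 64 was 764, for TRINITY_DN3060_c0_g1, and the transcript closest to the control August limit was TRINITY_DN11668_c0_g1, with a ratio of 1.63. The prefix TRINITY_ is left out of the names from here on.

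Neighbours on the other limits lay close to each other. The member with the narrowest gap between the months was DN168_c0_g2, with a lowest August value of 38.21 and a highest May value of 38.03. DN9096_c0_g1 met every other condition and fell outside, with a lowest August value of 380.2 against a highest May value of 382. DN3196_c1_g1 entered with an August mean of 50.2, and DN541_c0_g2 did not, with 49.7. DN4767_c0_g2 entered with a log2 difference of 1.53, and DN1363_c0_g1 did not, with 1.45. In all, 161 transcripts met every condition but the size of the log2 difference, and 215 met every condition but the August mean. The size of the group also rests on 1 library: without control August replicate 2 the same rule finds 101 transcripts, which include all 64.

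The 64 took 1.33% to 2.33% of a library's summed value in August and 0.221% to 0.359% in May. In bulk needles, fewer cells of a type and less RNA of a transcript per cell cannot be told apart. The median August mean of the 64 was 104.7, with a range from 50.2 to 1238, and the median May mean was 21.3, with a range from 0.336 to 310.1. The transcripts were abundant by the standard of this table, where 2971 of all transcripts (0.901%) had an August mean of 50 or more. Among the 64, 35 had an August mean of at least 100. The log2 difference between the months had a median of 2.32, was 4 or more in 9 transcripts, 3 or more in 18, and under 2 in 22. The median log2 difference over all tested transcripts was -0.05. In 18 of the 64, the lowest August value was at least 2 times the highest May value.

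**Figure D1:**
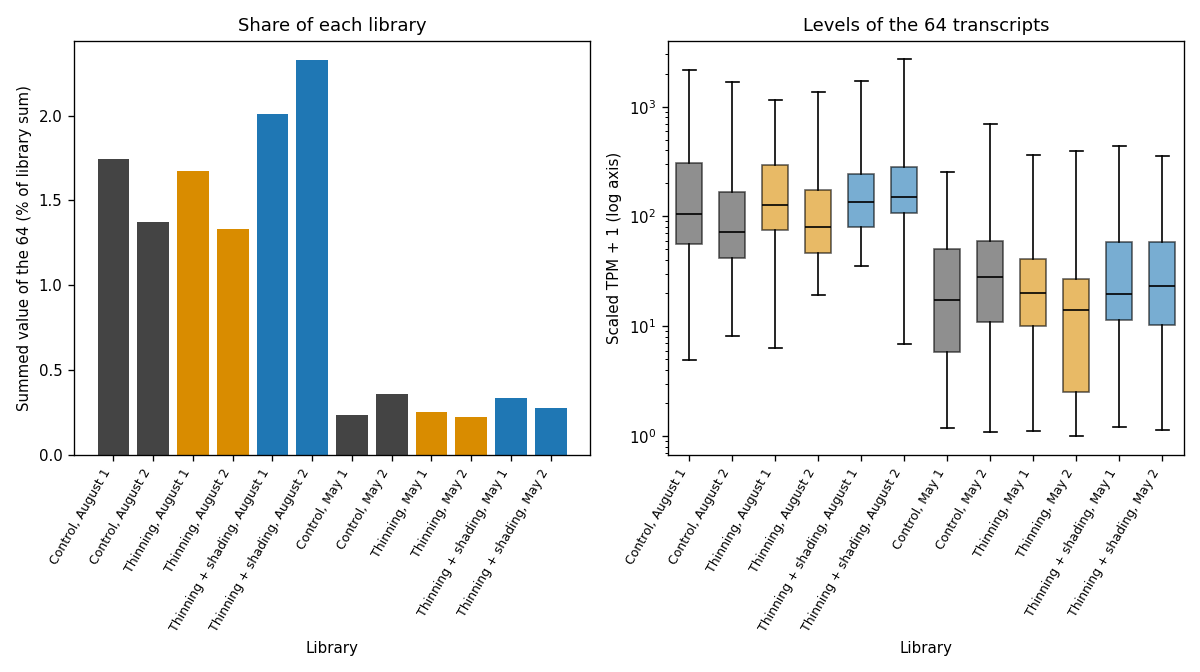
Left, the summed value of the 64 transcripts as a percentage of each library's sum (bars start at 0; grey, control; orange, thinning; blue, thinning plus shading). Right, the spread of scaled TPM + 1 over the 64 in each library on a log axis, with the median as a line, the quartiles as a box and whiskers to the lowest and highest value. The 6 August libraries lie between 1.33% and 2.33% and the 6 May libraries between 0.221% and 0.359%, and both thinning plus shading libraries are the highest of August.

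Most of the group was not silent in May. The May mean was 10 or more in 46 of the 64 and 100 or more in 8, and it was under 1 in 4. Those 4 were the pairs DN4825_c0_g1 and DN4825_c0_g2, and DN10108_c0_g1 and DN10108_c0_g2, each pair from 1 component of the assembly. They were near 0 in May and between 27.0 and 441 in August.

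The transcript with the largest difference, and with the highest August mean, was DN15726_c0_g1. Its August values were 2169 and 254 in control, 547.8 and 30.2 in thinning, and 1730.2 and 2694 under shading (mean 1238 ± 1107, SD, n = 6). Its May values were 2.46 and 0.926 in control, 0.908 and 6.04 in thinning, and 1.68 and 2.12 in thinning plus shading (mean 2.36 ± 1.91, SD, n = 6). The August values were spread 89.3-fold and the month means differed 525-fold, a log2 difference of 7.62. The 2 replicates of control and of thinning in August were far apart, and the lowest August library was still 4.99 times the highest May library.

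DN4825_c0_g2 had the next largest difference, 6.63 on the log2 scale. It stood at 441 and 71.6 in control, 243 and 33.9 in thinning, and 157 and 130.1 under shading in August. The 6 values of May ran from 0.077 to 1.46 with a mean of 0.413 ± 0.526 (SD, n = 6). DN4825_c0_g1, from the same component, followed it library by library, with 378 and 59.2, 204 and 28.6, and 137 and 112 in August. For both, replicate 1 was above replicate 2 in all 3 treatments in August.

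DN3060_c0_g1 had an August mean close to that of the leading transcript but was high in May too. Its August values were 976 and 1664 in control, 1041 and 1368 in thinning, and 1498 and 763 in thinning plus shading. Its May values were 165 and 689 in control, 360.2 and 88.8 in thinning, and 353 and 205 in thinning plus shading. The lowest August value was 1.11 times the highest May value, so the months nearly touched.

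The steadiest transcripts in August were DN25239_c0_g4 and DN25239_c0_g5, from 1 component. DN25239_c0_g4 measured 1089 and 794 in control, 1119 and 1079.7 in thinning, and 954 and 1044 in thinning plus shading (mean 1013 ± 121, SD, n = 6). In May it measured 212 and 364 in control, 322 and 126 in thinning, and 436 and 353 in thinning plus shading (mean 302 ± 113, SD, n = 6). The August values differed 1.41-fold from lowest to highest, against 89.3-fold for DN15726_c0_g1. No treatment stood apart in August, and thinning replicate 2 was the lowest library in May.

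**Figure D2:**
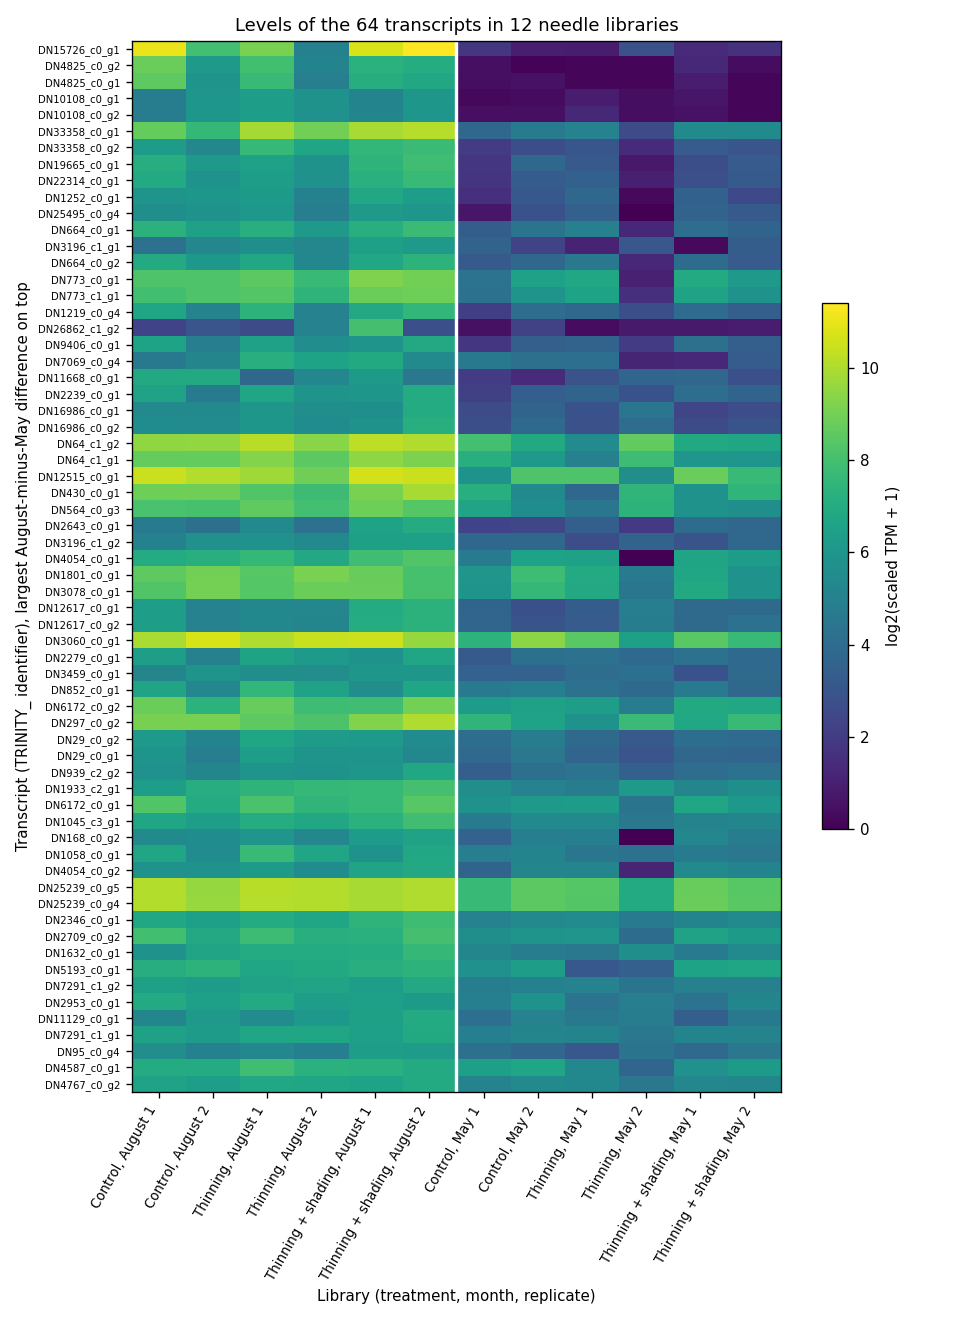
Log2(scaled TPM + 1) of the 64 transcripts (rows, largest difference between the months on top) in the 12 libraries (columns, August left and May right of the white line). The colour runs from 0 (dark) to the highest value (yellow). Every row is brighter in August, the top rows run down to nearly 0 in May, and thinning May replicate 2 holds the darkest cells of several rows.

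**Figure D3:**
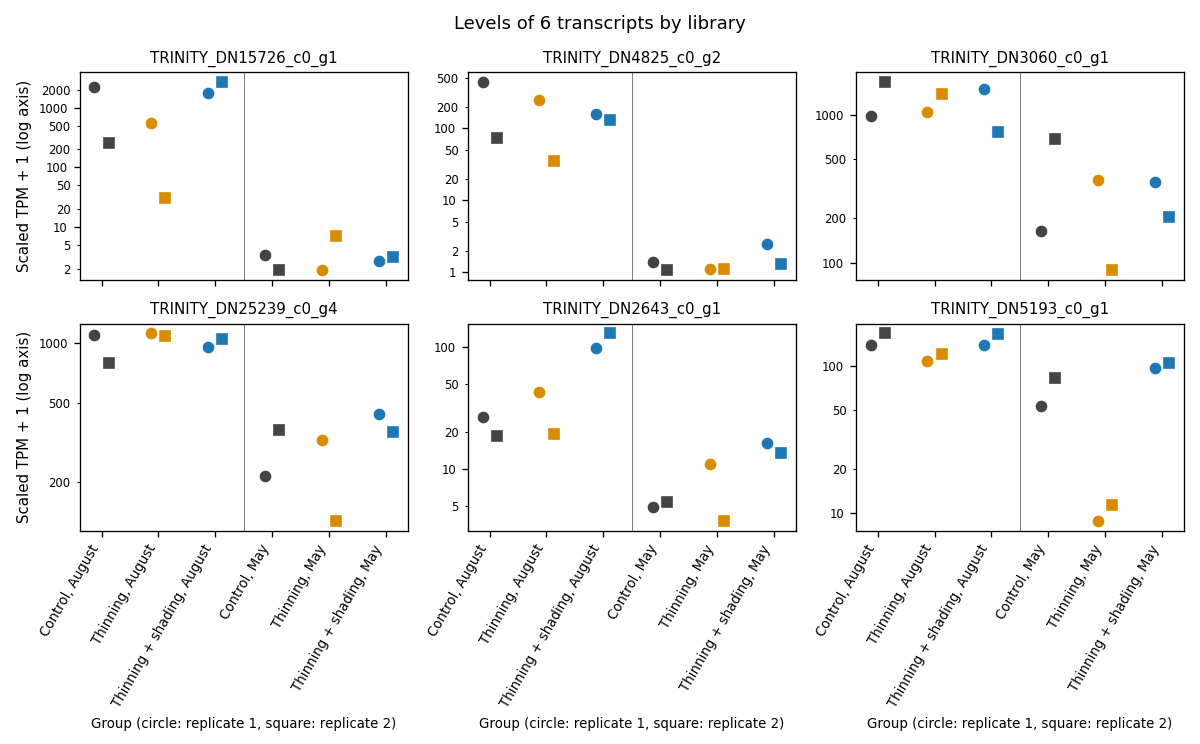
Scaled TPM + 1 on a log axis for 6 transcripts in each group (grey, control; orange, thinning; blue, thinning plus shading; circle, replicate 1; square, replicate 2; August left of the line). DN15726_c0_g1 spans 89.3-fold within August and DN25239_c0_g4 1.41-fold. DN2643_c0_g1 is highest under shading in August, and DN5193_c0_g1 is lowest in thinning in May.

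The place of some members rested on single libraries: 17 of the 64 fell outside the rule when 1 or another of the 12 libraries was left out, 7 of them without thinning May replicate 2 and 6 without shaded August replicate 2. An example with a wide gap is DN26862_c1_g2, singled out after its values were seen, which stood at 259.9 in thinning plus shading replicate 1 and at 3.95 to 32.1 in the other 5 August libraries. Its May values ran from 0.318 to 3.58. Its August mean was 52.4 ± 102 (SD, n = 6) with that library and 10.9 without it. The other transcript of its component that was tested, DN26862_c1_g1, had the same shape, with 242 in that library and 3.74 to 31.8 in the other 5.

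The 64 transcripts belonged to 51 components of the assembly, which are sets of sequences joined by the assembler. Of these, 38 components held 1 member and 13 held 2. Transcripts of 1 component can be forms or parts of 1 gene that share reads, and how the reads were divided among them is not given in the sources used here, so such pairs are not independent. After removing each transcript's mean within each month, the correlation over the 12 libraries had a median of 0.977 in the 13 pairs from the same component, from 0.853 to 0.999. It had a median of 0.195 in the 2003 other pairs. The points share the 12 libraries and each library's scaling. Joining all pairs with a correlation of 0.95 or more gave 36 sets, of which 1 held 6 members and 5 held 3.

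The set of 6 crossed 5 components and is made of DN1252_c0_g1, DN168_c0_g2, DN4054_c0_g1, DN4054_c0_g2, DN773_c0_g1 and DN773_c1_g1. DN773_c0_g1 is the most abundant of them, with 304 and 302 in control, 372 and 209.9 in thinning, and 578 and 499 under shading in August. The May values were 19.5 and 89.7 in control, 114 and 1.03 in thinning, and 126 and 68.8 in thinning plus shading. Both shaded libraries were the highest in August, and thinning replicate 2 was the lowest in May by a wide margin. These 6 were described because they were linked, which is a choice made after seeing the values.

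A set of 3 from 3 components was formed by DN3060_c0_g1, DN3078_c0_g1 and DN1801_c0_g1, again chosen after their values were seen. DN3078_c0_g1 measured 319 and 510.1 in control, 339.9 and 456 in thinning, and 437 and 273 in thinning plus shading in August. DN1801_c0_g1 measured 377 and 495 in control, 349.9 and 548 in thinning, and 429.5 and 268 in thinning plus shading. In these 3, shaded replicate 2 was the lowest August library, unlike in most of the group.

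The same components held 44 transcripts outside the group, and 29 of them were tested. Of the 29, 27 had a higher mean log2 value in August, 14 differed by 1.5 or more, and 9 had all 6 August values above all 6 May values. Examples are DN4767_c0_g3, at 78.4 to 112 in August and 25.9 to 44.1 in May, and DN168_c0_g1, at 203 to 476 in August and 86.6 to 155 in May. The 2 that were lower in August were DN1219_c0_g2, with a log2 difference of -0.84, and DN430_c0_g2, with -0.25. Reads may be shared with the members, so these transcripts are not a separate check of the month difference.

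Within August, the shaded trees often carried the highest levels of this group, and the rule had used their values. Thinning plus shading had the highest mean of the 3 treatments in 44 of the 64 transcripts, thinning in 13 and control in 7. Over all tested transcripts the shares were 33.9%, 27.4% and 38.7%. Control had the lowest mean in 41, thinning in 19 and thinning plus shading in 4, where the shares over all tested were 35.81%, 34.84% and 29.35%. Every August library enters the August mean and the log2 difference of the rule, so a transcript raised in any 1 treatment passes more easily, and these counts are a description.

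In 25 of the 64 (39.1%), both shaded libraries were above the other 4 August libraries, and this held for 9.3% of all tested transcripts, which no such rule had chosen. Of the 25, 8 had a mean under 50 in the other 4 August libraries and passed that limit only through the shaded ones. Run on the 4 unshaded August libraries, the rule found 60 transcripts, and both shaded libraries were above the other 4 in 16 of them (26.7%) and below them in 6 (10%). All 16 were among the 25. In none of the 64 were both shaded libraries below the other 4, against 10.3% of all tested. Both control libraries were below the other 4 in 10, where the background was 13.2%, and above them in 1, DN11668_c0_g1, where it was 15.5%. Run without the control August libraries, which then no longer had to exceed May, the rule found 143 transcripts. Both control libraries were below the other 4 in 70 of these (49%) and above them in 0. Both thinning libraries were above the other 4 in 2, DN29_c0_g2 and DN4587_c0_g1, with a background of 7.16%, and below them in 4, with a background of 9.45%. Run without the thinning August libraries, the rule found 78 transcripts, with both thinning libraries above in 1 (1.28%) and below in 11 (14.1%). Counting linked transcripts once, the 25 fell into 22 of 51 components and 14 of 36 linked sets. Among the 161 transcripts that met every condition but the size of the log2 difference, both shaded libraries were above the other 4 in 13 (8.08%). With shaded replicate 1 left out, the remaining shaded library was above the other 4 in 41 of the 64, with a background of 19.7%. With shaded replicate 2 left out, the count was 30 of the 64, with a background of 22.4%. A single library above the other 4 is an easier condition than both.

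The ratio of the shaded mean to the mean of the other 4 August libraries ran from 1.36 to 4.33 in these 25. The largest ratio belonged to DN2643_c0_g1, with 95.9 and 128 under thinning plus shading, 25.7 and 17.7 in control, and 41.9 and 18.4 in thinning. The lower shaded library was 2.29 times the highest of the other 4. The pair DN12617_c0_g1 and DN12617_c0_g2 came next, with ratios of 3.01 and 3.07, and were chosen after their values were seen. DN12617_c0_g2 measured 134 and 158 under thinning plus shading, 83.7 and 31.8 in control, and 39.2 and 35.7 in thinning. At the other end, DN12515_c0_g1 only just separated, with 1604 and 1414 under thinning plus shading, 1413 and 1074 in control, and 870.2 and 486 in thinning.

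Single libraries moved with this pattern. Shaded replicate 2 was the highest August library in 34 of the 64 and shaded replicate 1 in 12. Over all tested transcripts the shares were 14.8% and 18.1%, so shaded replicate 1 was near its background. Control replicate 2 was the lowest in 25 and thinning replicate 2 in 22, where the background was 16.2% and 18.6%. The group's share of the library was 2.01% and 2.33% under thinning plus shading, 1.74% and 1.37% in control, and 1.67% and 1.33% in thinning. The part of library quality in these orders was not tested.

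**Figure D4:**
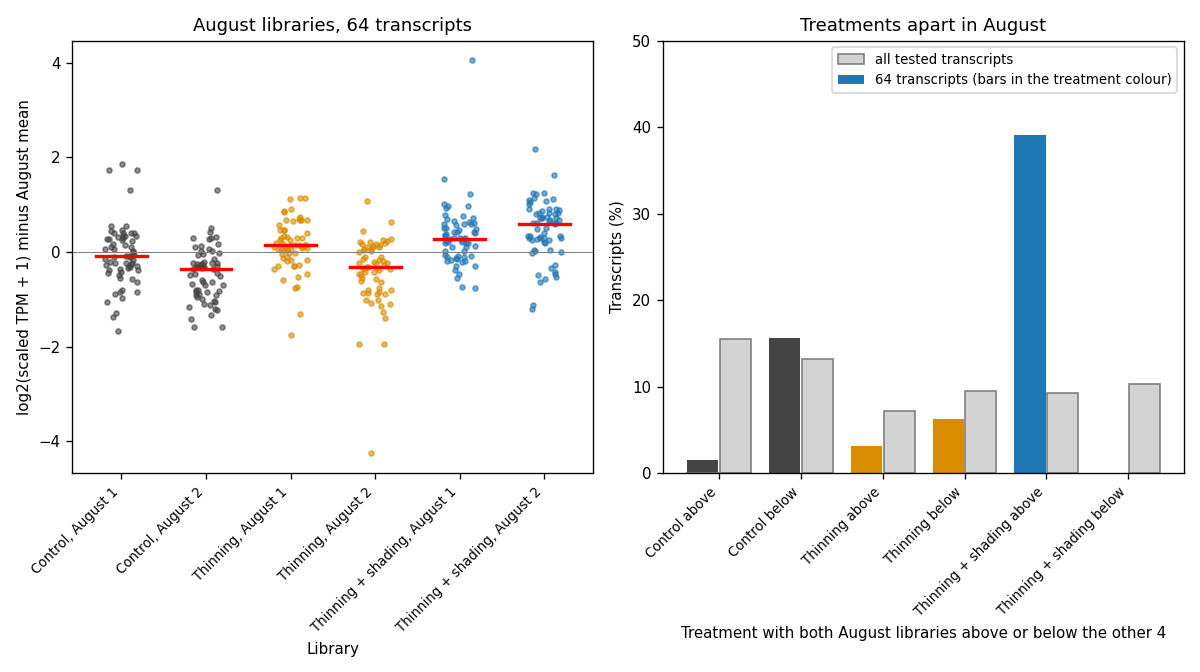
Left, log2(scaled TPM + 1) of each of the 64 transcripts minus its August mean in the 6 August libraries (points, with the median as a red line; grey, control; orange, thinning; blue, thinning plus shading). Right, the percentage of the 64 (treatment colour) and of all tested transcripts (light grey) in which both libraries of a treatment lie above or below the other 4. The shaded libraries have the 2 highest medians, and the tall bar is the 39.1% with both shaded libraries above the other 4, against 9.3% of all tested.

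Tested transcript by transcript, none of the 64 passed for any pair of treatments in August. The test was limma on log2(value + 1) over all 19726 transcripts, with Benjamini-Hochberg adjustment in each of 9 contrasts and a call at an adjusted p under 0.05. Thinning plus shading against control called 0.188% of all tested transcripts and 0 of the 64, with 12 of the 64 at an unadjusted p under 0.05 (18.8%, against 11.7% of all tested), 11 of them higher under shading. Thinning plus shading against thinning called 0% of all tested and 0 of the 64, with 6 of the 64 at an unadjusted p under 0.05 (9.38%, against 4.58% of all tested), all higher under shading. Thinning against control called 0.892% of all tested and 0 of the 64, with 1 of the 64 at an unadjusted p under 0.05 (1.56%, against 10.8% of all tested). These contrasts share libraries, so their counts are not independent. The rule used the values of all 12 libraries. In these and the later contrasts, the shares and directions of the 64 beside all tested are therefore a description.

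The fitted log2 differences had these medians. For thinning plus shading minus control the median over the 64 was 0.61 and 56 were positive, while the median over all tested was 0.00. For thinning plus shading minus thinning the median was 0.55 with 47 positive, against 0.04 over all tested. For thinning minus control it was 0.21 with 42 positive, against -0.02. In the same order, the positive shares were 87.5%, 73.4% and 65.6% of the 64, beside 48.8%, 54.2% and 46.8% of all tested. The rule used these August values, so the medians and signs are a description. Single libraries moved these medians: thinning minus control came to -0.04 without thinning August replicate 1, to 0.40 without thinning August replicate 2 and to 0.10 without control August replicate 2. Thinning plus shading minus thinning came to 0.22 without thinning August replicate 2. The median half-width of the 95% confidence interval of a single difference was 1.46 for the 64, which is wider than a 2-fold difference (1 on this scale).

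DN2643_c0_g1 had the smallest p of the group in both contrasts with shading in August. Its log2 difference was 2.33 (SE 0.53) for thinning plus shading minus control, with an adjusted p of 0.129 by limma. For thinning plus shading minus thinning it was 1.96, with an adjusted p of 0.841 by limma. The call against control appeared when a pseudocount of 8 was used (adjusted p 0.0326 by limma). That setting called 1.56% of the group beside 1.31% of all tested transcripts, where a pseudocount of 1 had called 0.188% of all tested. The call was therefore near the background share and is not particular to this transcript. The call also appeared when either thinning May library was left out, which leaves 1 library in that group. More of all tested transcripts were called there too. DN11668_c0_g1 had the smallest p for thinning against control. It measured 120.3 and 120.4 in control, 13.6 and 37.8 in thinning, and 73.7 and 21.6 in thinning plus shading, and its log2 difference was -2.35 (SE 0.66), with an adjusted p of 0.184 by limma.

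In May the group was lower than in August by the rule, and the thinning libraries often stood at the ends of the range. A thinning May library was the lowest or the highest of the 6 in 56 of the 64. Thinning replicate 2 was the lowest in 33 (51.6%), against 33.7% of all tested transcripts, and thinning replicate 1 was the lowest in 14 (21.9%), against 20.8%. Thinning replicate 2 was the highest in 13 (20.3%), against 31.1%. The 2 thinning replicates differed 2-fold or more in 45 of the 64, the control replicates in 29 and the shaded replicates in 13. In August the same counts were 11 for thinning, 23 for control and 8 for thinning plus shading. For the 56 and for these 2-fold counts, the share over all tested transcripts was not counted. The pooled SD between replicates on the log2 scale was 1.09 for the 64 in May and 0.71 in August. Over all tested transcripts it was 1.01 in May and 0.52 in August. In thinning May alone it was 1.62 for the 64 and 1.34 over all tested, so the wide spread there was not particular to the group.

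In 9 of the 64, from 7 components and 3 linked sets, thinning replicate 2 was at least 4 times below the next lowest May library. All 6 members of the largest linked set were among them, with DN25495_c0_g4, DN664_c0_g1 and DN664_c0_g2. DN4054_c0_g1, 1 of the 6, was listed at 0 there, while the other 5 May libraries ran from 26.0 to 99.9, and it measured 118 to 314 in August. DN664_c0_g1 measured 1.48 there and 9.16 to 30.6 in the other 5 May libraries. These 9 were picked by their May values and are described only.

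Other members ran the opposite way between the same 2 libraries. DN64_c1_g2 measured 44.3 in thinning replicate 1 and 397.6 in thinning replicate 2, with 102 to 251 in the other 4 May libraries. DN430_c0_g1 measured 13.2 and 176 in the same 2 libraries, and DN564_c0_g3 measured 21.5 and 166. In 8 of the 14 transcripts in which thinning replicate 1 was the lowest (57.1%), thinning replicate 2 was the highest, and among all tested transcripts with replicate 1 lowest the share was 50.9%. A mean of the 2 thinning libraries in May therefore lies between far points for most of the group. These members too were chosen after their values were seen.

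**Figure D5:**
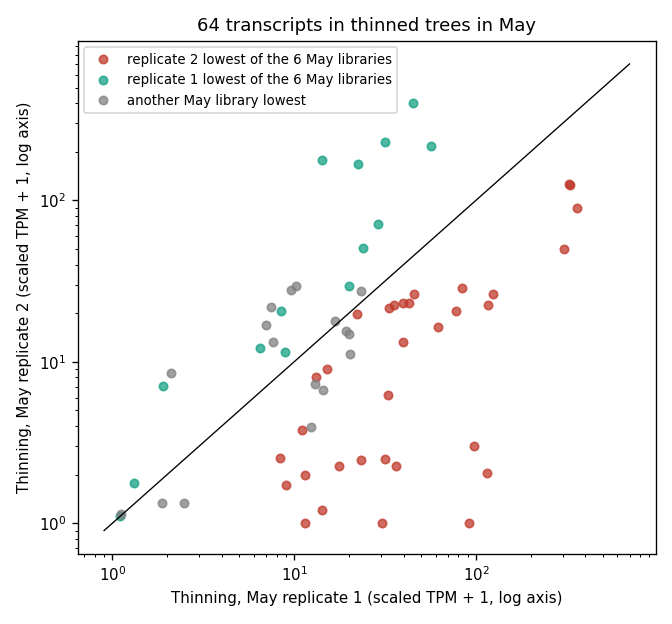
Scaled TPM + 1 of the 64 transcripts in thinning May replicate 1 (horizontal, log axis) and replicate 2 (vertical, log axis), with the line of equal values. Red, replicate 2 is the lowest of the 6 May libraries (33 transcripts); green, replicate 1 is the lowest (14); grey, another library is the lowest. The points scatter on both sides of the line, and 45 of the 64 differ 2-fold or more.

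Both thinning libraries were below the other 4 in May in 5 of the 64 (7.81%), against 9.81% of all tested transcripts, and the widest gap among them belonged to DN5193_c0_g1. It measured 7.85 and 10.4 in thinning, 52.5 and 82.0 in control, and 95.5 and 104 in thinning plus shading in May. In August it measured 106 and 119 in thinning, 138 and 166 in control, and 138 and 163 in thinning plus shading. The May thinning libraries overlapped with no other library, and the August groups lay close together.

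It was 1 of the 2 transcripts called for thinning plus shading minus thinning in May, where 0.0101% of all tested were called. Its log2 difference was 3.32 (SE 0.25; limma, adjusted p 0.0117). For thinning minus control in May its log2 difference was -2.73 (limma, adjusted p 0.0701), and none of the 64 was called there, where 0% of all tested were. The call rested on the fit. Its adjusted p by limma ran from 0.0033 to 0.946 over the alternatives. It was 0.946 in a fit of the 2 groups alone, 0.900 in a fit of the 6 May libraries and 0.057 without the filter. It also rose above 0.05 when either control August library (0.0560 and 0.0553), either thinning August library (0.0637 for both) or either shaded May library (0.0988 and 0.203) was left out. Without thinning May replicate 1 the contrast called 16 of the 64 (25%), 14 higher and 2 lower under shading, and 12.4% of all tested transcripts.

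For the other May contrasts no member passed by limma. At an unadjusted p under 0.05 there were 3 of the 64 for thinning against control, 3 for thinning plus shading against control, where 0% of all tested were called, and 3 for thinning plus shading against thinning. That is 4.69% of the 64 in each, beside 8.51%, 4.87% and 8.04% of all tested. The median log2 difference over the 64 was -0.29 for thinning minus control, against -0.09 over all tested. It was 0.16 for thinning plus shading minus control, against -0.10, and 0.44 for thinning plus shading minus thinning, against 0.01. These medians rested on single libraries. Thinning minus control came to 0.12 without thinning May replicate 2, to -0.56 without thinning May replicate 1, to -0.68 without control May replicate 1 and to -0.11 without control May replicate 2. Thinning plus shading minus thinning came to 0.12 without thinning May replicate 2 and to 0.70 without thinning May replicate 1. Thinning plus shading minus control came to -0.06 without control May replicate 1 and to 0.36 without control May replicate 2, and was 0.24 without shaded May replicate 1. The smallest p for thinning plus shading against control belonged to DN2643_c0_g1, with 3.92 and 4.42 in control, 10.01 and 2.78 in thinning, and 15.4 and 12.7 under shading in May. Its log2 difference was 1.54, with an adjusted p of 0.923 by limma. Without thinning May replicate 1, the contrast of thinning with control called 7 of the 64 (10.9%) and 3.67% of all tested, DN5193_c0_g1 included, where its adjusted p by limma was 0.0206.

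The difference between the months was steepest in thinning in 30 of the 64, in thinning plus shading in 28 and in control in 6. It was shallowest in control in 40. The share over all tested was not counted for these orders, and the rule had used the values. The difference was larger than in control in 78.1% of the 64 for thinning and 75% for thinning plus shading. Over all tested these shares were 56.8% and 55.5%. The median month difference on the log2 scale was 1.94 for control, 2.72 for thinning and 2.54 for thinning plus shading. It was 1 or more in every treatment in 61. The exceptions, named because they are few, were DN7069_c0_g4 with 0.51 in control, DN4587_c0_g1 with 0.42 in control and DN5193_c0_g1 with 0.59 in thinning plus shading.

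Whether the month difference differed between treatments was tested for each pair, and no member passed. Thinning against control called 0% of all tested and 0 of the 64, with 7 of the 64 at an unadjusted p under 0.05 (10.9%, against 8.96% of all tested). Thinning plus shading against control also called 0% of all tested and 0 of the 64, with 3 at an unadjusted p under 0.05 (4.69%, against 5.01%). Thinning plus shading against thinning called 0% and 0 of the 64, with 4 at an unadjusted p under 0.05 (6.25%, against 8.64%). The medians over the 64 were 0.49, 0.48 and -0.04 on the log2 scale, beside 0.10, 0.08 and 0.03 over all tested, and the median half-width of a 95% confidence interval was 2.07. Leaving out 1 library took the first median from 0.02 (without thinning May replicate 2) to 0.93 (without thinning May replicate 1), the second from 0.14 (without control August replicate 2) to 0.75 (without control May replicate 1), and the third from -0.63 (without thinning May replicate 1) to 0.27 (without thinning May replicate 2).

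DN5193_c0_g1 had the smallest p in both contrasts that involve thinning. Its month difference was 2.31 higher on the log2 scale in thinning than in control (adjusted p 0.0805 by limma) and 2.91 lower in thinning plus shading than in thinning (adjusted p 0.209 by limma). DN11668_c0_g1 had the smallest p for thinning plus shading against control, where its month difference was 3.17 lower, with an adjusted p of 0.741 by limma. It measured 2.98 and 1.54 in control, 6.65 and 12.3 in thinning, and 12.4 and 5.99 in thinning plus shading in May, so it was the lowest in control in May and the highest in control in August. Without thinning May replicate 1, 4 of the 64 (6.25%, against 2.95% of all tested) were called for thinning against control and 6 (9.38%, against 6.70%) for thinning plus shading against thinning.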

How the data were processed

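RNA was sequenced from needles in 12 libraries, 2 for each of 3 treatments and 2 months, with paired-end reads of 150 bases. The extraction text of the labels speaks of roots of another conifer, while every sample label says needles of Abies pinsapo. Trimmomatic, RSEM and DESeq2 are listed, without versions or order, per the submitters' processing notes. The settings and the depth are unknown here. The authors deposited 1 table of 329801 transcripts, whose values are a signal in the form of a scaled TPM: at least 99.35% of values in each library are whole steps of 0.01 TPM, within 0.1 of a step, once 1 factor per library is removed. No read count could be recovered.

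The 64 members were found by the rule, and tests used limma 3.58.1 in R 4.3.3 on log2(value + 1), with 6 group means, all 12 libraries in 1 fit, a trended prior variance and adjustment over the 19726 transcripts that reached 10 in at least 2 libraries. A fold change on this scale understates that of low transcripts. The script was tested on simulated data. The members, the lists and the contrasts were chosen with earlier results of these data known. Transcripts were named by rule: the 2 with the largest difference, highest August mean and smallest August spread, those beside each limit, called members or the smallest p in each contrast, and the component with most members (13 tied, and DN4825 is shown). Other names were chosen after seeing their values. Lists of pathway or marker genes were not used, since no annotation links the identifiers to genes. Alternatives were other pseudocounts, filters, scalings, fits and libraries left out.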

Additional observations from a re-analysis of the deposited data

Results flagged for a closer look

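Within each month, the 6 values of every member were examined for a library that lay far from the others, measured as the gap to the nearest value over the whole range. Of 128 groups of 6 values, 8 had such a library, and in each it held the highest value. The values were not log-transformed, the rule had chosen the members, and some share a component. No chance rate is therefore set beside this count. The flags were spread over 7 libraries.

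In August, DN26862_c1_g2 stood at 259.9 in thinning plus shading replicate 1, with the next value at 32.1. DN16986_c0_g1 and DN16986_c0_g2, from 1 component, stood at 128.4 and 142.1 in thinning plus shading replicate 2, with the next values at 63.8 and 65.3. DN4587_c0_g1 stood at 239 in thinning replicate 1, with the next value at 156.

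In May, DN15726_c0_g1 stood at 6.039 in thinning replicate 2, with the next value at 2.46. DN26862_c1_g2 stood at 3.582 in control replicate 2, with the next value at 0.822. DN10108_c0_g2 stood at 1.486 in thinning replicate 1 and DN4825_c0_g2 at 1.458 in thinning plus shading replicate 1, with the next values at 0.486 and 0.378.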

How the results depend on the processing

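All 64 members were higher in August, with no overlap between the months, under the deposited scaling, with the library factor removed and after quantile normalization. The rule fixed this outcome for the deposited scaling. Removing the factor could only widen the gap, since every August column has a smaller sum than every May column. Quantile normalization used the same 12 libraries that chose the 64, and it moved the median of all tested transcripts up by only 0.08. No scaling here is therefore a check of the month difference. The median log2 difference of the 64 was 2.32, 2.62 and 2.40. Removing the factor moved the median of all tested transcripts up by 0.28. The number of members by the rule was 125 with no library factor, 131 with an August mean of 20 or more, 42 with a log2 difference of 2 or more, and 61 to 101 with 1 library left out. Both shaded August libraries were above the other 4 in 24 members under quantile normalization and with no factor, and in 25 to 41 with 1 August library left out, alternatives chosen after seeing the data. It was 16 of the 60 transcripts found when the rule ran on the 4 unshaded August libraries, also chosen after seeing the data.

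The counts of called members changed as follows. Thinning plus shading against control in August gave 1 with a pseudocount of 8, or 1.56% of the members beside 1.31% of all tested transcripts. That count also changed when either thinning May library was left out. Thinning against control in May gave 1 with a filter of 50 and 0 to 7 with 1 library left out. Thinning plus shading against thinning in May gave 0 with no filter, 0 when only the 2 groups entered the fit, 0 in the 6 May libraries alone, and 0 to 16 with 1 library left out. The contrasts of the month difference gave 0 to 4 for thinning against control and 0 to 6 for thinning plus shading against thinning with 1 library left out. The cause was not tested.

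Replicate numbers paired no samples by label. The correlation of deviations between groups with the same number ran from -0.71 to 0.63 across the tested transcripts of the whole table. With the replicate number as a block, thinning against control in May called 1 member in place of 0. That was 1.56% of the 64, beside 0.0101% of all tested transcripts. The other 8 contrasts gave the same count of members as without the block. For DN2643_c0_g1, DN5193_c0_g1 and DN11668_c0_g1, no fitted difference changed sign under any alternative in the contrasts where they were called or had the smallest p. The other named transcripts were not checked for this. Several medians over the 64 did change sign, as given with them. Depth is unknown, so low May values have no error from counting.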
